A study of Caenorhabditis elegans with 8 samples.

Results

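The fbxa and fbxb genes of the nematode Caenorhabditis elegans were followed across 4 genotypes. Members were the genes whose symbol is fbxa- or fbxb- followed by a number and whose expected counts, summed over 8 libraries, reached 40. Of 274 such symbols in the files, all annotated as protein coding, 151 reached that sum (100 fbxa and 51 fbxb), out of 14397 genes that reached it and 46904 genes in all. Of the members, 6 start on chromosome V between positions 17300000 and 17800000, and 145 lie elsewhere. Members were thus chosen by their summed expected counts, and the window was selected on levels known from earlier results to differ in daf-2 strains. The last symbols left out had sums of 39 (fbxb-98), 38.01 (fbxb-43) and 38 (fbxb-42 and fbxb-71), and the first kept had 40 (fbxb-102) and 42 (fbxb-119, fbxb-77 and fbxb-105).

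RNA was taken from whole worms on day 1 of adulthood, grown at 20 °C, with 2 libraries from independent repeats of each genotype. The double mutant hel-1(gk148684);daf-2(e1370) carries both mutations. The daf-2(e1370) strain carries a reduction-of-function allele of the insulin/IGF-1 receptor gene, and the hel-1(gk148684) strain an allele of hel-1, which encodes an RNA helicase of the DEAD-box family. N2 is the wild type. The study asked how hel-1 mutation changes expression in wild-type and in daf-2 worms. The hel-1 transcript is no check of the allele: it stood at 535 and 526 CPM (counts normalized to library size with edgeR) in hel-1;daf-2, 547 and 468 CPM in daf-2, 565 and 526 CPM in hel-1, and 618 and 601 CPM in wild type. Both wild-type libraries lay above all mutant libraries, and the transcript was called in no comparison (smallest edgeR adjusted p 0.0957, daf-2 against wild type).

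F-box proteins are the part of a Skp1-cullin-F-box (SCF) ubiquitin ligase that chooses the substrate. The F-box motif binds a Skp1-related protein, encoded by the skr genes in this worm, which joins it to a cullin, and the rest of the protein binds the target. The worm genome holds a very large set of F-box genes, many in clusters of close relatives, and most fbxa and fbxb genes have no assigned substrate. In this species, the Skp1-related genes skr-3, skr-4 and skr-5, the cullin gene cul-6 and the F-box genes fbxa-75 and fbxa-158 are known from the intracellular pathogen response, a program raised by microsporidia and viruses.

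Libraries held 31555368 to 37552513 expected counts. The log2 levels of the 2 libraries of a genotype correlated at 0.987 (daf-2) to 0.998 (hel-1;daf-2) over 13722 tested genes. Replicate 2 of daf-2 stood apart from replicate 1: the summed level of 13 pharynx markers was 20.0 CPM in replicate 1 and 156 CPM in replicate 2, of 12 body wall muscle markers 2660 and 5130 CPM, of 7 hypodermis markers 753 and 1470 CPM, of 11 neuron markers 214 and 303 CPM, and of 13 oocyte and germline markers 9310 and 7250 CPM. The 8 intestine markers summed to 2400 and 2570 CPM in the same libraries. The 38 sperm markers summed to 105 and 320 CPM in the daf-2 libraries and to 336 and 84.4 CPM in the wild-type libraries. Every marker of these lists had counts in some library except msp-32, which was at 0 in all. In whole worms, fewer cells of a type and less RNA per cell cannot be told apart.

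Most members were weakly expressed. Per length, the median level over all libraries was 1.31 RPKM (CPM per kilobase of exons) for fbxa members, with a 10th to 90th percentile of 0.212 to 8.05, and 0.208 RPKM for fbxb members (0.135 to 0.465). All genes that reached the same sum had a median of 5.83 RPKM. The highest member was fbxa-215 at 135 RPKM, followed by fbxa-101 (32.7), fbxa-210 (28.2), fbxa-206 (21.8), fbxa-114 (13.7) and fbxa-192 (10.3). Summed CPM over the 95 fbxa members outside the window was 524 and 552 in hel-1;daf-2, 519 and 545 in daf-2, 486 and 508 in hel-1, and 465 and 500 in wild type. The 50 fbxb members outside it summed to 16.4 and 17.6 CPM in hel-1;daf-2, 18.4 and 21.4 CPM in daf-2, 20.3 and 15.1 CPM in hel-1, and 16.6 and 13.8 CPM in wild type. fbxa-215 alone, at 168 to 197 CPM, makes up a large part of each fbxa sum.

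Several of the best-expressed members differed little between genotypes. fbxa-215 had 189 and 189 CPM in hel-1;daf-2, 180 and 181 CPM in daf-2, 168 and 168 CPM in hel-1, and 176 and 197 CPM in wild type. Both hel-1 libraries lay below the wild-type range and the other mutants within it, and its smallest adjusted p in the 5 tests was 0.208 (edgeR). fbxa-210, fbxa-206 and fbxa-114 passed no test either, with log2 fold changes between daf-2 and wild type of 0.01 ± 0.08, -0.04 ± 0.09 and -0.01 ± 0.14 (± standard error here and below). fbxa-101 fell slightly in daf-2 and is described with the called genes.

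Members lie in clusters. Chromosome III holds 46 (39 of them fbxa), chromosome V 45 (40 fbxa), chromosome II 36 (29 fbxb), chromosome I 11, chromosome IV 7 and chromosome X 6. Of the 151, 97 have another fbxa or fbxb symbol within 10 kb, and 24 share at least 20 exon bases with another annotated gene. Expected counts were whole numbers in every library for 141 members and for 10 were not. Among the members named below, those of fbxa-156 (8 libraries), fbxa-77 (5 libraries) and fbxa-67 (1 library) were not whole, and are uncertain to that extent.

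Tests used the quasi-likelihood method of edgeR over all 8 libraries, and a gene was called at an adjusted p under 0.05 over all tested genes. The filter on low counts kept 127 members, 6 in the window and 121 outside (92 fbxa and 29 fbxb). The other 24 (3 fbxa and 21 fbxb) had summed counts of 40 to 74 and never exceeded 0.474 CPM in a library. Since the labels name only independent repeats, with no word on cultures, p-values measure the spread between these libraries.

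In the chromosome V window, fbxa-188, fbxa-189, fbxb-7 and fbxa-176 had reads in all 4 libraries of the daf-2 strains and none in the 4 libraries of hel-1 and wild type. The window was drawn around this difference, so the values of these genes between daf-2 and wild type, and between hel-1;daf-2 and hel-1, are a description with no test. Positions are those of the WBcel235 annotation.

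fbxb-7 (chromosome V, 17377406 to 17379233, plus strand, 2 exons) had 4.39 and 5.90 CPM in hel-1;daf-2 and 4.44 and 4.51 CPM in daf-2, from 141 to 188 counts a library. It was at 0 in both hel-1 and both wild-type libraries. Against a floor of 3 counts a library, which covers counting error only, it was at least 49.7-fold higher in daf-2 than in wild type and at least 59.4-fold higher in hel-1;daf-2 than in hel-1.

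fbxa-189 (17345214 to 17347781, plus strand, 10 exons) had 3.52 and 3.51 CPM in hel-1;daf-2 and 4.44 and 4.39 CPM in daf-2, and was at 0 in the other 4 libraries. The lower bounds were 49.0-fold for daf-2 against wild type and 40.6-fold for hel-1;daf-2 against hel-1. Its neighbour fbxa-188 (17342791 to 17344926, minus strand, 5 exons) was weaker, with 0.571 and 0.784 CPM in hel-1;daf-2 and 0.883 and 1.1 CPM in daf-2, from 19 to 44 counts, and 0 elsewhere. Its bounds were 11-fold for daf-2 against wild type and 7.83-fold for hel-1;daf-2 against hel-1.

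fbxa-176 (17549675 to 17551209, plus strand, 4 exons) was the weakest of them, at 0.331 and 0.502 CPM in hel-1;daf-2 and 0.347 and 0.299 CPM in daf-2. These levels rest on 11 to 16 counts a library, against 0 in hel-1 and wild type. Its bounds were 3.58-fold for daf-2 against wild type and 4.81-fold for hel-1;daf-2 against hel-1. At this depth, a count of 0 allows hel-1 or wild-type levels up to the floor of 3 counts a library.

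The hel-1 mutation did not move these 4 genes past the test where they had reads. The log2 fold changes of hel-1;daf-2 over daf-2 were -0.55 ± 0.44 for fbxa-188, -0.33 ± 0.24 for fbxa-189, 0.20 ± 0.26 for fbxb-7 and 0.36 ± 0.56 for fbxa-176, with edgeR adjusted p of 0.453, 0.428, 0.623 and 0.679 in that order. Between hel-1 and wild type no fold exists, since both groups were at 0, and the interaction could not be estimated.

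**Figure D1:**
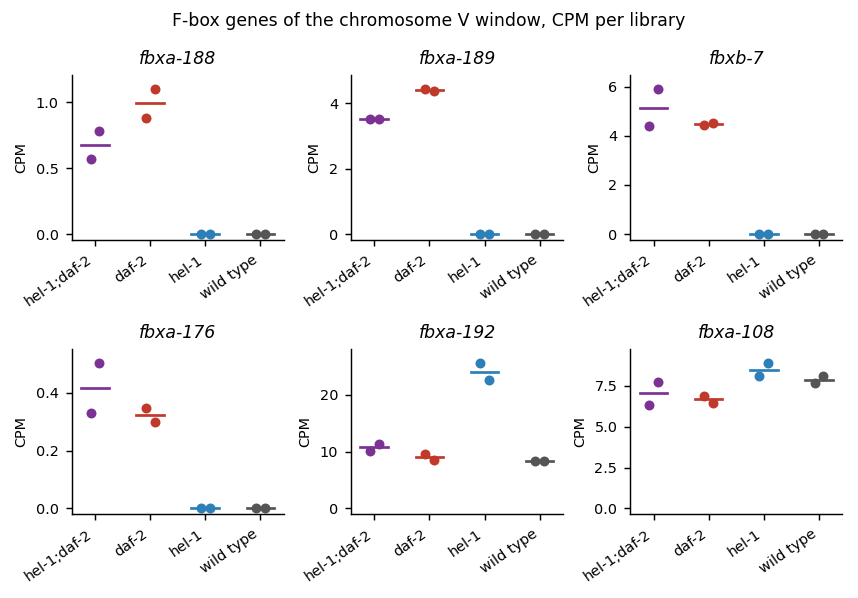
Level in CPM (vertical axes, from 0) of the 6 members of the chromosome V window in each library, by genotype; points are libraries and lines are means of 2. fbxa-188, fbxa-189, fbxb-7 and fbxa-176 are at 0 in hel-1 and wild type, and fbxa-192 is highest in hel-1, at 25.5 and 22.6 CPM.

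The silent genes were part of a longer run. From 17339084 to 17551209 (212 kb), 13 tested genes in a row had at most 2 counts in total over the 4 hel-1 and wild-type libraries, a run picked after its values were seen. Of 82 genes annotated there, 29 had counts in the daf-2 strains and 1 in the others. That one was lsy-27, with 1 read in replicate 1 of hel-1 and 1 in replicate 1 of wild type. Summed counts over the stretch were 7605 in the 4 libraries of the daf-2 strains and 2 in the 4 libraries of hel-1 and wild type.

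The run took in genes of other kinds beside the F-box genes. The Skp1-related gene skr-5, which lies next to fbxa-189 and whose annotation overlaps that of lsy-27 at one end, had 0.150 and 0.439 CPM in hel-1;daf-2 and 0.315 and 0.623 CPM in daf-2, and was at 0 in the other 4 libraries. Y20C6A.1, left of fbxb-7, had 5.2 and 5.18 CPM in hel-1;daf-2 and 6.65 and 5.81 CPM in daf-2, and C18D4.6, to its right, had 5.74 and 5.05 CPM in hel-1;daf-2 and 4.13 and 4.21 CPM in daf-2. Both were at 0 in hel-1 and wild type. A further F-box symbol below the sum of 40, fbxa-134, had 9 and 7 counts in hel-1;daf-2, 8 and 12 counts in daf-2 and 0 in the others. In all, 7 fbxa or fbxb symbols lie inside the stretch.

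The next tested genes beyond its ends had reads from every genotype. The next tested gene on the left had 118 counts in the daf-2 strains and 52 in the others. The next on the right, C38D9.2, had 0.421 and 0.345 CPM in hel-1;daf-2, 0.284 and 0.374 CPM in daf-2, 0.371 and 0.249 CPM in hel-1, and 0.262 and 0.124 CPM in wild type. Genes further right in the window, named after their values were seen, also differed. WBGene00050974 (17599978 to 17600872) had 111 counts in the daf-2 strains and 2 in the others, and Y6G8.2 had 1930 and 295. The difference was thus not confined to the 212 kb run. The DNA of these strains was not analysed here.

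**Figure D2:**
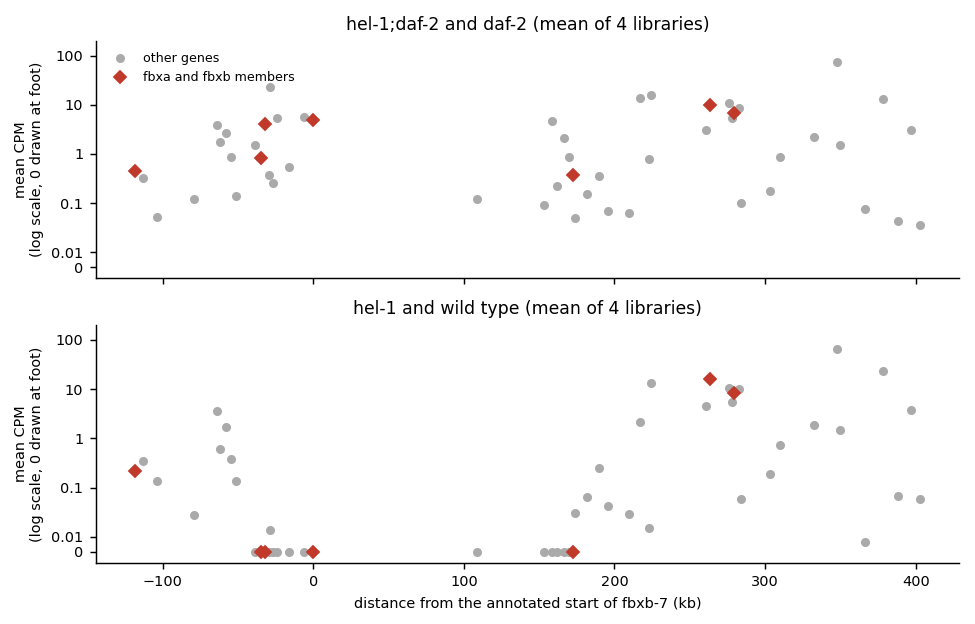
Mean CPM over 4 libraries (log scale, 0 drawn at the foot) of each gene with reads against its distance in kb from the annotated start of fbxb-7, for the daf-2 strains (top) and for hel-1 and wild type (bottom). Red diamonds are fbxa and fbxb members, and the run of genes at the foot of the lower panel spans 212 kb.

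The remaining members of the window had reads in every genotype. fbxa-192 (17640672 to 17650527, minus strand, 4 exons) had 10.1 and 11.4 CPM in hel-1;daf-2, 9.65 and 8.53 CPM in daf-2, 25.5 and 22.6 CPM in hel-1, and 8.34 and 8.32 CPM in wild type. Both hel-1 libraries stood above all 6 others. In hel-1 against wild type it rose 2.89-fold (log2 1.53 ± 0.13, edgeR adjusted p = 0.00341), in a comparison in which 0.364% of all tested genes were called higher. Its log2 fold change of hel-1;daf-2 over daf-2 was 0.24 ± 0.13 (edgeR adjusted p = 0.331).

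The call of fbxa-192 in hel-1 against wild type ended without wild-type replicate 1 (adjusted p = 0.0733) or 2 (0.0794), with the fold at 2.88 and 2.89. The interaction, the hel-1 effect in daf-2 worms minus the hel-1 effect in wild-type worms, was -1.29 on the log2 scale. It equals the difference between the pair of comparisons the window was drawn on, so for members of the window it is a description with no test. In that pair the log2 values of fbxa-192 were 0.12 for daf-2 over wild type and -1.16 for hel-1;daf-2 over hel-1.

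The nearest tested neighbours of fbxa-192 did not pass the test in hel-1 against wild type. WBGene00010209, on its left, had 3.76 and 2.76 CPM in hel-1;daf-2, 3.47 and 2.59 CPM in daf-2, 6.65 and 6.95 CPM in hel-1, and 1.77 and 2.76 CPM in wild type (hel-1 over wild type log2 1.58 ± 0.28, edgeR adjusted p = 0.0719). WBGene00010295, on its right, had a log2 fold change of 0.36 ± 0.13 in the same comparison (edgeR adjusted p = 0.341).

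fbxa-108 (17656890 to 17659385, minus strand, 5 exons) had 6.34 and 7.75 CPM in hel-1;daf-2, 6.90 and 6.48 CPM in daf-2, 8.11 and 8.88 CPM in hel-1, and 7.67 and 8.10 CPM in wild type. Its hel-1 libraries stood just above the wild-type ones, and its hel-1;daf-2 and daf-2 libraries overlapped. It did not pass the test in hel-1 against wild type (log2 0.11 ± 0.16, edgeR adjusted p = 0.743) or in hel-1;daf-2 relative to daf-2 (0.07 ± 0.16, 0.763). Its interaction value was -0.03 on the log2 scale.

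Among the 121 tested members outside the window, 19 rose and 2 fell in daf-2 against wild type, where 12.1% of all tested genes were called higher and 7.21% lower. As shares, 15.7% of these members rose and 1.65% fell. The median log2 fold change of these members was 0.52, against 0.10 for all tested genes. All 21 called members were fbxa genes. Of the 29 tested fbxb members none was called by edgeR, 1 had an unadjusted edgeR p under 0.05, and their median was 0.48. Of all 13722 tested genes, 5522 had an unadjusted edgeR p under 0.05. The median of the 92 fbxa members was 0.53.

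The filter asked for about 0.296 CPM in at least 2 libraries, and not every member met it on both sides. Of the 121, 91 met it both in the daf-2 strains and in hel-1 and wild type, and of these 15 rose and 2 fell. A further 16 met it through the daf-2 strains alone, 7 through hel-1 and wild type alone, and 7 with 1 library of each side. The 16 were tested only because of their levels in the daf-2 strains. Of them fbxa-125, fbxa-135, fbxa-88 and fbxa-62 were called higher, and their values are given as a description.

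These counts depended on single libraries. Without wild-type replicate 1 or replicate 2, fbxa-125 and fbxa-78 alone stayed called higher (2 of 19) and none lower, and a fit of the 4 compared libraries gave the same 2 and 0. These are 1.5% and 1.49% of the members fitted, where 2.44% and 1.55% of all tested genes were called higher. With daf-2 replicate 2 left out, 8 rose and 1 fell of 126, with a median of 0.35. The share higher was then 6.35% of the members and 6.34% of all tested genes, so the members' share was that of the background. Without daf-2 replicate 1, 34 rose and 3 fell (25.6% and 2.26%), where 25.3% and 23.9% of all tested genes did. Without hel-1;daf-2 replicate 1 or 2, which enter the fit through the shared spread, 7 and 6 rose and none fell (5.22% and 4.48%, against 5.13% and 5.11% of all tested genes). The median log2 difference between daf-2 replicate 2 and replicate 1 was 0.18 over these members (92 of 121 higher in replicate 2) and 0.02 over all tested genes, beside the marker levels given above. In daf-2 against wild type, 10 of 10 tested pharynx markers, 12 of 12 muscle markers, 9 of 11 neuron markers and 6 of 7 hypodermis markers were positive, with 1, 4, 2 and none called higher in that order. Of the oocyte and germline markers 0 of 13 were positive, with 4 called lower. Intestine markers were positive in 4 of 8, with 1 called higher and 2 lower, and sperm markers in 16 of 33. The part of these cell types in the result was not tested.

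fbxa-125 (chromosome I, 10646478 to 10647841, 5 exons) met the filter through the daf-2 strains alone, so its values in the daf-2 comparisons are a description. It had 2.68 and 2.42 CPM in hel-1;daf-2, 2.08 and 1.77 CPM in daf-2, 0.106 and 0.0935 CPM in hel-1, and 0.0872 and 0.0311 CPM in wild type. The 4 libraries of the daf-2 strains stood far above the others. It was 30.3-fold higher in daf-2 than in wild type (log2 4.92 ± 0.45) and 24.6-fold higher in hel-1;daf-2 than in hel-1 (4.62 ± 0.41). Of its 314 counts, 303 came from the daf-2 strains. Under the 13 alternatives run, its log2 fold change lay between 4.4 and 5.78 in daf-2 against wild type. In hel-1;daf-2 against hel-1 it lay between 4.54 and 4.71. With wild-type replicate 2 alone, which had 1 count, the ratio of daf-2 to wild type was 61.4 with a 95% counting interval of 10.8 to 2440. Its log2 fold change of hel-1;daf-2 over daf-2 was 0.40 ± 0.31 (adjusted p = 0.426).

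fbxa-78 (chromosome III, 1257182 to 1258458, 3 exons) had 4.06 and 4.67 CPM in hel-1;daf-2, 6.90 and 8.03 CPM in daf-2, 0.663 and 1.59 CPM in hel-1, and 0.698 and 0.621 CPM in wild type. It rose 11.3-fold in daf-2 against wild type (log2 3.49 ± 0.39, edgeR adjusted p = 0.00218) and 3.90-fold in hel-1;daf-2 against hel-1 (1.96 ± 0.37, 0.0240). The second call ended without hel-1 replicate 1 (2.74-fold, 0.0593) or without either hel-1;daf-2 library, and without hel-1 replicate 2 the fold was 6.56. Its exons lie wholly over fbxa-208 on the other strand, so reads of the pair cannot be told apart without strand.

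fbxa-135 (chromosome V, 15402264 to 15404409, 5 exons) was close to silent in hel-1 and wild type. It had 1.05 and 0.721 CPM in hel-1;daf-2, 1.1 and 1.4 CPM in daf-2, 0.106 and 0 CPM in hel-1, and 0.0872 and 0 CPM in wild type. With 91 counts in daf-2 and 3 in wild type, the ratio was 28.1 with a 95% counting interval of 9.33 to 139. Of its 156 counts, 149 came from the daf-2 strains. It met the filter through those strains alone, so its values in the daf-2 comparisons are a description. Its call in daf-2 against wild type ended without either wild-type library. With wild-type replicate 2 alone, which was at 0, it was at least 13.4-fold higher in daf-2, and with replicate 1 alone the ratio was 14.5, with a counting interval of 4.82 to 71.7. Its log2 fold change in hel-1;daf-2 against hel-1 was 3.89 ± 0.93.

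Of the other called genes named by rank, fbxa-69 on chromosome V differed most between daf-2 libraries. It had 2.34 and 2.2 CPM in hel-1;daf-2, 2.99 and 7.18 CPM in daf-2, 1.14 and 1.78 CPM in hel-1, and 1.28 and 0.838 CPM in wild type. It rose 4.8-fold in daf-2 against wild type (edgeR adjusted p = 0.0191), and 2.85-fold without daf-2 replicate 2 (0.0439). fbxa-98 on chromosome IV had 3.07 and 3.17 CPM in hel-1;daf-2, 3.06 and 3.52 CPM in daf-2, 2.41 and 2.37 CPM in hel-1, and 1.34 and 1.58 CPM in wild type. It rose 2.25-fold in daf-2 against wild type (edgeR adjusted p = 0.0149), with no overlap between the daf-2 strains and the others. Both calls ended without either wild-type library (adjusted p 0.0769 to 0.136).

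The remaining ones ranked by adjusted p lie on chromosome III. fbxa-67 had 2.98 and 4.20 CPM in hel-1;daf-2, 4.67 and 5.14 CPM in daf-2, 3.0 and 3.24 CPM in hel-1, and 2.06 and 1.89 CPM in wild type (2.47-fold in daf-2 against wild type, edgeR adjusted p = 0.0124). It shares 451 exon bases with WBGene00020459 on the same strand. fbxa-61 had 1.68 and 1.66 CPM in hel-1;daf-2, 1.89 and 2.59 CPM in daf-2, 1.46 and 2.21 CPM in hel-1, and 0.552 and 0.869 CPM in wild type (3.16-fold, 0.0224). fbxa-29 had 1.11 and 1.00 CPM in hel-1;daf-2, 1.20 and 1.70 CPM in daf-2, 0.583 and 0.997 CPM in hel-1, and 0.378 and 0.435 CPM in wild type (3.55-fold, 0.0227). In all 3 genes the hel-1 libraries also stood above both wild-type libraries, and none passed the test in hel-1 against wild type (edgeR adjusted p of 0.336, 0.199 and 0.402). All 3 calls ended without either wild-type library (adjusted p 0.0740 to 0.132), and those of fbxa-61 and fbxa-29 also without daf-2 replicate 2 (0.0615 and 0.0616) or without either hel-1;daf-2 library.

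A further 11 members were called higher in daf-2 against wild type: fbxa-107, fbxa-182, fbxa-26, fbxa-5, fbxa-51, fbxa-54, fbxa-6, fbxa-62, fbxa-77, fbxa-79 and fbxa-88. In the 10 with wild-type reads the fold lay between 1.44 and 5.38, at mean levels of 0.173 to 10.6 CPM. The highest fold was that of fbxa-62, which had 2 counts in each wild-type library. It met the filter through the daf-2 strains alone, so its value is a description. The next highest was fbxa-182 at 3.56-fold. fbxa-88, also tested only because of its levels in the daf-2 strains, was at 0 in wild type. It had 0.120 and 0.376 CPM in hel-1;daf-2, 0.441 and 0.324 CPM in daf-2, and 0.0265 and 0.0935 CPM in hel-1. As a description, daf-2 was at least 4.24-fold higher than wild type. Of its 47 counts, 43 came from the daf-2 strains. It shares 352 exon bases with fbxa-18 on the other strand.

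Only fbxa-101 and fbxa-72 fell in daf-2 against wild type. fbxa-101 (chromosome I) had 35.2 and 36.5 CPM in hel-1;daf-2, 34.4 and 33.1 CPM in daf-2, 38 and 36.6 CPM in hel-1, and 40.3 and 42.7 CPM in wild type, a log2 fold change of -0.30 ± 0.07 (edgeR adjusted p = 0.0271). fbxa-72 (chromosome V, 674886 to 676753) had 7.81 and 8.31 CPM in hel-1;daf-2, 7.76 and 9.55 CPM in daf-2, 18.1 and 20.3 CPM in hel-1, and 15.8 and 11.8 CPM in wild type. It fell in daf-2 against wild type (log2 -0.67 ± 0.18, edgeR adjusted p = 0.0364) and in hel-1;daf-2 against hel-1 (-1.25 ± 0.18, 0.00865). In both genes the 4 libraries of the daf-2 strains lay below the 4 others. The daf-2 call of fbxa-101 ended when any library but daf-2 replicate 1 was left out (adjusted p 0.0546 to 0.202). That of fbxa-72 ended without any single library of hel-1;daf-2, hel-1 or wild type (0.0556 to 0.161), and its call against hel-1 ended without either hel-1;daf-2 library (0.0821 and 0.0758).

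**Figure D3:**
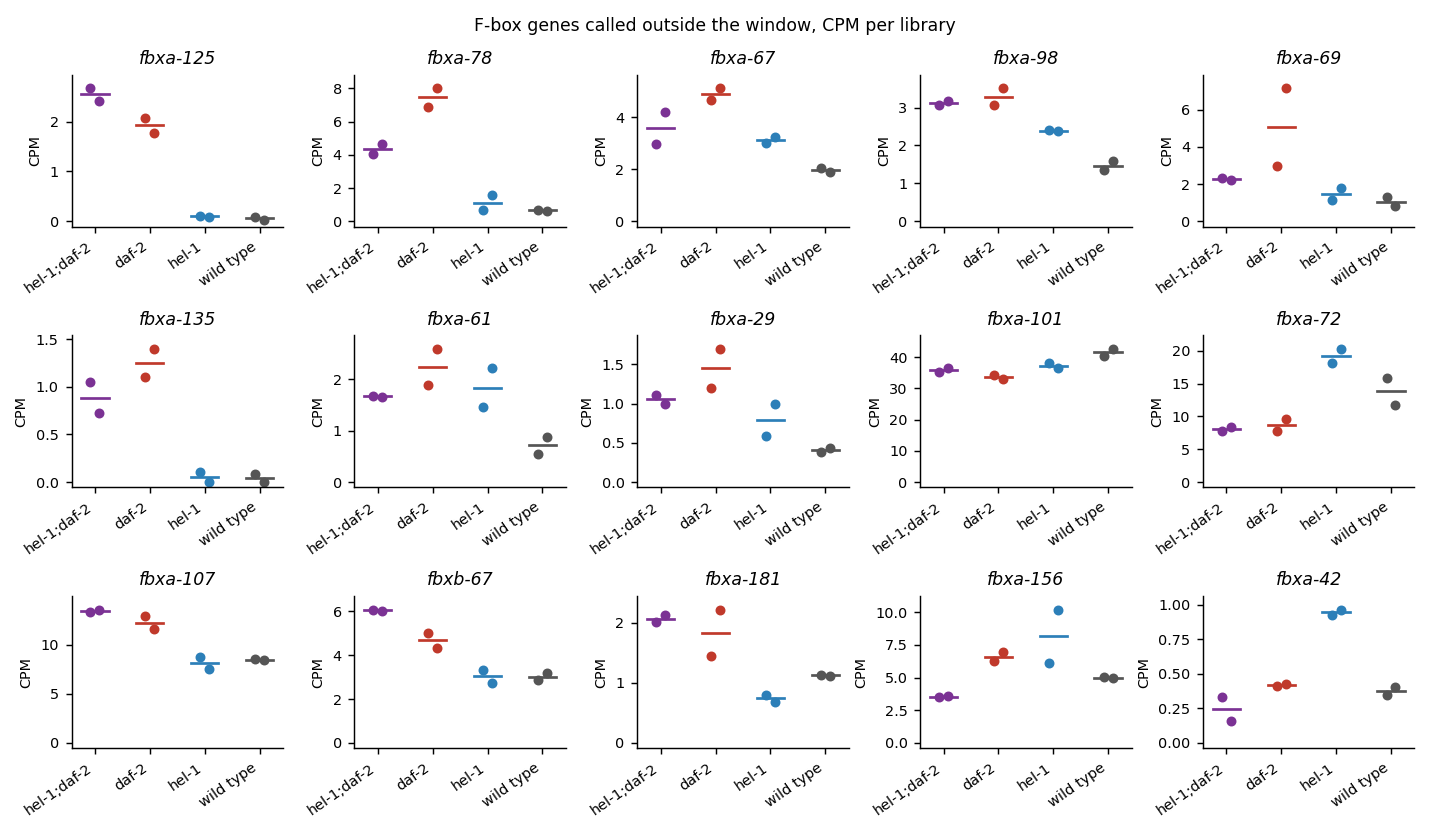
Level in CPM (vertical axes, from 0) of the 15 called members outside the window that the naming rule gives, in each library, by genotype; points are libraries and lines are means of 2. fbxa-125, fbxa-78 and fbxa-135 stand near the foot of their panels in hel-1 and wild type, while fbxa-72 is lower in both daf-2 strains.

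Called members were most numerous on chromosome III, where 12 of 40 tested members rose in daf-2 against wild type. Of all tested genes of that chromosome, 8.68% were called higher. Among the 12 is fbxa-62, which was tested only because of its levels in the daf-2 strains. Between 0.9 and 1.5 Mb, a range chosen after the values were seen, 10 of 24 tested members rose. All 24 had a positive log2 fold change, from 0.26 to 3.49, with a median of 1.00. The 65 other tested genes of the same range had a median of 0.09, with 5 called higher and 2 lower. Without daf-2 replicate 2, 2 of the 24 were called higher, 23 were positive and the median was 0.75, while 4 of the 65 other genes were called higher, 40 were positive and their median was 0.09. In hel-1 against wild type the same 24 were again all positive (0.16 to 1.36, median 0.71) with none called, a comparison that uses the same wild-type libraries. For hel-1;daf-2 against hel-1, which shares no library with daf-2 against wild type, 15 of the 24 were positive, the median was 0.08 and 1 was called.

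Outside the window, 5 members rose and 3 fell in hel-1;daf-2 against hel-1, where 2.96% of all tested genes were called higher and 2.65% lower. As shares, 4.13% of the 121 rose and 2.48% fell, and their median log2 fold change was 0.04, against -0.01 for all tested genes. Besides fbxa-125 and fbxa-78, the members that rose were fbxa-107, fbxb-67 and fbxa-181. fbxa-125 is among the members tested only because of their levels in the daf-2 strains. Fewer members were called without either hel-1;daf-2 library, and fewer of all tested genes as well. Without hel-1;daf-2 replicate 1 the members' median was 0.06, and without replicate 2 it was -0.09. The median of all tested genes was -0.02 in both fits. Leaving out daf-2 replicate 2, 9 of 126 rose and 5 fell (7.14% and 3.97%), where 8.57% and 7.73% of all tested genes did. Without daf-2 replicate 1, 9 of 133 rose and 5 fell (6.77% and 3.76%), where 8.09% and 7.01% of all tested genes did.

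fbxa-107 (chromosome V, 18123939 to 18125235) had 13.4 and 13.6 CPM in hel-1;daf-2, 12.9 and 11.6 CPM in daf-2, 8.75 and 7.57 CPM in hel-1, and 8.55 and 8.41 CPM in wild type. It rose 1.65-fold in hel-1;daf-2 against hel-1 (edgeR adjusted p = 0.0218) and 1.44-fold in daf-2 against wild type (0.0322). Its daf-2 strains stood above the others in all 4 libraries. fbxb-67 (chromosome I, 14297287 to 14298325), the best-expressed fbxb member at 4.22 RPKM, had 6.07 and 5.99 CPM in hel-1;daf-2, 5.01 and 4.34 CPM in daf-2, 3.31 and 2.74 CPM in hel-1, and 2.85 and 3.17 CPM in wild type. It rose 1.99-fold in hel-1;daf-2 against hel-1 (edgeR adjusted p = 0.0273) and missed the threshold in daf-2 against wild type (log2 0.63 ± 0.19, 0.0533). These calls against hel-1 ended without any single library of hel-1;daf-2 or hel-1 (adjusted p 0.0695 to 0.191), and that of fbxb-67 also without either wild-type library (0.0529 and 0.0548).

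fbxa-181 (chromosome V) had 2.01 and 2.13 CPM in hel-1;daf-2, 1.45 and 2.22 CPM in daf-2, 0.795 and 0.686 CPM in hel-1, and 1.13 and 1.12 CPM in wild type (2.79-fold in hel-1;daf-2 against hel-1, edgeR adjusted p = 0.0347). fbxa-156 and fbxa-42 fell beside fbxa-72. fbxa-156 (chromosome V) had 3.49 and 3.61 CPM in hel-1;daf-2, 6.24 and 6.98 CPM in daf-2, 6.15 and 10.2 CPM in hel-1, and 5.03 and 4.97 CPM in wild type (log2 -1.20 ± 0.24, edgeR adjusted p = 0.0323). Its counts were not whole in any library, as happens where reads are split with another gene, and are uncertain. fbxa-42 (chromosome III) had 0.331 and 0.157 CPM in hel-1;daf-2, 0.410 and 0.424 CPM in daf-2, 0.928 and 0.966 CPM in hel-1, and 0.349 and 0.404 CPM in wild type (log2 -1.94 ± 0.45, edgeR adjusted p = 0.0486). These 3 calls ended without either hel-1;daf-2 library, without either wild-type library and without hel-1 replicate 2 (adjusted p 0.0596 to 0.358), and those of fbxa-181 and fbxa-42 also without hel-1 replicate 1 (0.139 and 0.211) or with DESeq2. Without hel-1;daf-2 replicate 1 the log2 fold change of fbxa-42 was -2.57.

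The daf-2 effect could be set side by side with and without the hel-1 mutation, since daf-2 against wild type and hel-1;daf-2 against hel-1 share no library. Of the 19 members that rose in daf-2 against wild type, 16 were also positive in hel-1;daf-2 against hel-1, and all 5 that rose there were positive in daf-2 against wild type. Over all tested genes these numbers were 1132 of 1658 and 380 of 406. Called higher in both were fbxa-125, fbxa-78 and fbxa-107 (3 of 19 and 3 of 5), and called lower in both was fbxa-72 (1 of 2 and 1 of 3). Of all tested genes, 262 were called higher in both (of 1658 and of 406) and 116 lower in both (of 990 and of 364). Across the 121 members the log2 fold changes correlated at r = 0.57, and across all 13722 tested genes at 0.45. These are descriptions over genes that share libraries and are not independent. The 121 include 16 members that met the filter through the daf-2 strains alone and 7 through hel-1 and wild type alone. That selection favours the same sign in both comparisons, and r was not computed without them. By level, 21 members had all 4 libraries of the daf-2 strains above all 4 of the others, where 11.4% of all tested genes did. fbxa-125, fbxa-135, fbxa-88 and fbxa-127 are among these 21 and were tested only because of their levels in the daf-2 strains. A further 6 members had them all below, where 9.73% of all tested genes did. Among these 6, fbxb-38 was tested only because of its levels in hel-1 and wild type.

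**Figure D4:**
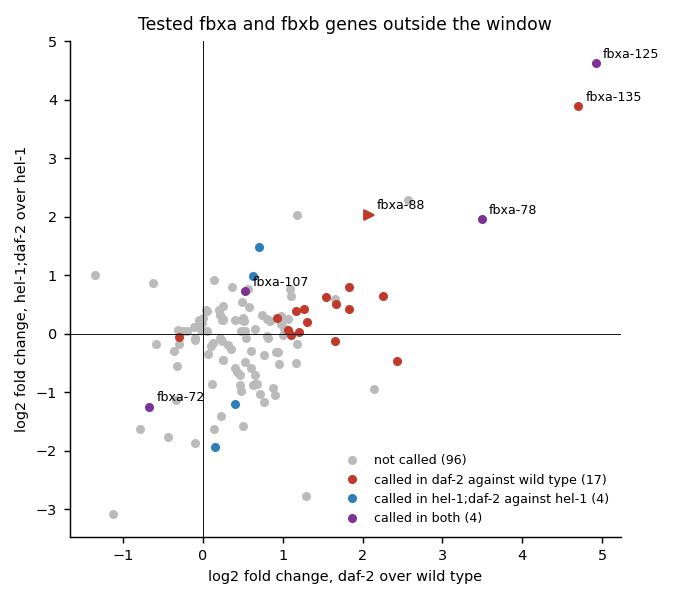
Log2 fold change of the 121 tested members outside the window, daf-2 over wild type (horizontal) against hel-1;daf-2 over hel-1 (vertical); colours mark the comparisons in which a gene was called, and the triangle places fbxa-88 at its lower bound. fbxa-125, fbxa-135 and fbxa-78 lie to the upper right and fbxa-72 to the lower left.

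In hel-1 against wild type none of the 121 members passed the edgeR test, where 0.364% of all tested genes were called higher and 0.051% lower. Of the members, 23 had an unadjusted edgeR p under 0.05, where 1674 of all 13722 tested genes did, and DESeq2 called 1 member higher. The median log2 fold change of the members was 0.42, with 92 of 121 positive, against 0.02 for all tested genes. Without daf-2 replicate 2 these medians were 0.44 and 0.04. A larger share of all tested genes was then called, but not of the members. The gene called by DESeq2 was fbxa-60. It had 8.03 and 10.9 CPM in hel-1;daf-2 and 9.36 and 10 CPM in daf-2. In hel-1 it had 10.5 and 16.1 CPM, and in wild type 7.12 and 6.27 CPM. Its edgeR log2 fold change of hel-1 over wild type was 0.98 ± 0.23 (adjusted p = 0.156). Markers of several cell types also had positive log2 fold changes there, with none called: 7 of 7 for hypodermis (median 1.33), 11 of 11 for neurons (0.61), 12 of 12 for body wall muscle (0.21) and 32 of 33 for sperm (0.24). Pharynx markers were positive in 6 of 10, intestine markers in 6 of 8 and oocyte and germline markers in 0 of 13 (median -0.17). The hypodermis markers summed to 856 and 839 CPM in hel-1 and to 674 and 493 CPM in wild type. Their part in it was not tested.

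None of the 121 passed the edgeR test in hel-1;daf-2 relative to daf-2 either, where 0.0146% of all tested genes were called higher and 0.0364% lower. Of the members, 11 had an unadjusted edgeR p under 0.05, where 2307 of all 13722 tested genes did. DESeq2 called none of the members, and their median log2 fold change was -0.19, with 40 of 121 positive. Without daf-2 replicate 2 the median was -0.03, and without daf-2 replicate 1 it was -0.41 with 7 called lower (5.26%, against 19% of all tested genes). Several marker lists were lower as well, with none called. Their median log2 fold changes were -2.73 for pharynx (0 of 10 positive), -1.32 for sperm (1 of 33), -1.05 for hypodermis (0 of 7), -0.95 for neurons (1 of 11) and -0.56 for muscle (0 of 12). The medians of oocyte and germline markers (13 of 13 positive) and of intestine markers (5 of 8) were 0.18 and 0.08. When daf-2 replicate 2 was left out, those of pharynx, neurons and hypodermis were -0.18, -0.27 and -0.12. Their part in it was not tested. By level, 2 members (fbxa-145 and fbxa-74) had all 4 libraries of the hel-1 strains above the 4 others, where 0.532% of all tested genes did, and 1 (fbxb-3) had them all below, where 0.364% did.

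No member outside the window passed the edgeR test of the interaction, where 0.0729% of all tested genes were called higher and 0.751% lower. The median was -0.67, against -0.09 for all tested genes, with 29 of 121 positive. Of the members, 25 had an unadjusted edgeR p under 0.05, where 3799 of all 13722 tested genes did, and DESeq2 called 1 member lower. Without daf-2 replicate 2 the median was -0.48, and without daf-2 replicate 1 it was -0.95 with 5 called higher and 16 lower (3.76% and 12%, against 24.2% and 21.6% of all tested genes). Several marker lists lay on the same side, with a median of -3.14 for pharynx (0 of 10 positive), -1.75 for hypodermis (0 of 7), -1.60 for sperm (0 of 33), -1.54 for neurons (1 of 11, with 1 called lower) and -0.79 for muscle (0 of 12). The medians of oocyte and germline markers (13 of 13 positive) and of intestine markers (4 of 8) were 0.37 and 0.03. Without daf-2 replicate 2, the median was -1.38 for hypodermis, -1.10 for neurons and -0.30 for pharynx. Their part in it was not tested. The interaction uses every library, so it shares the wild-type and daf-2 libraries named above.

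Other genes of ubiquitin ligases were counted from lists of the pathway, beside the background shares given for each comparison. In daf-2 against wild type, 2 of 34 tested genes of the SCF core and its regulators outside the window rose and 4 fell, with a median log2 fold change of 0.07. skr-5, the list's gene in the window, is described above with no test. skr-4 rose most clearly, with 21.6 and 21.7 CPM in hel-1;daf-2, 25.8 and 30 CPM in daf-2, 4.43 and 10.1 CPM in hel-1, and 3.92 and 4.44 CPM in wild type. Its log2 fold change was 2.74 ± 0.33 in daf-2 against wild type (edgeR adjusted p = 0.00303) and 1.58 ± 0.32 in hel-1;daf-2 against hel-1 (0.0303), where it was the only one of the list called. skr-12, another Skp1-related gene, also rose in daf-2 against wild type (1.69 ± 0.37, 0.0230), and skr-2 fell (-0.32 ± 0.07, 0.0201).

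The other parts of the pathogen-response ligase gave the following values, and were singled out for their known role and not by the naming rule. cul-6 had 1.92 and 2.35 CPM in hel-1;daf-2, 2.4 and 2.92 CPM in daf-2, 3.84 and 4.21 CPM in hel-1, and 2.44 and 2.61 CPM in wild type (hel-1;daf-2 over hel-1 log2 -0.91 ± 0.22, edgeR adjusted p = 0.0563). skr-3 had 12.6 and 13.2 CPM in hel-1;daf-2, 13.7 and 21.5 CPM in daf-2, 20.9 and 26.5 CPM in hel-1, and 10.6 and 11.9 CPM in wild type (hel-1 over wild type log2 1.08 ± 0.21, edgeR adjusted p = 0.0931). Its F-box genes fbxa-75 and fbxa-158 did not reach the summed count of 40 and never exceeded 0.0997 CPM in a library.

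Of 28 tested fbxc genes, a related F-box family, 7 rose and 1 fell in daf-2 against wild type (median log2 fold change 0.29), among them fbxc-43 (log2 1.67 ± 0.23, edgeR adjusted p = 0.00537), fbxc-58 (1.29 ± 0.26, 0.0197) and fbxc-4 (1.00 ± 0.24, 0.0308). Of these, 3 rose and 1 fell in hel-1;daf-2 against hel-1. fbxc-58 was the one that fell there (-1.36 ± 0.25, 0.0240), and fbxc-44 (0.44 ± 0.07, 0.0134) and fbxc-43 (1.17 ± 0.22, 0.0251) rose. fbxc-58 had 1.29 and 1.60 CPM in hel-1;daf-2, 1.89 and 2.37 CPM in daf-2, 3.90 and 3.52 CPM in hel-1, and 0.814 and 0.931 CPM in wild type. It was the only fbxc gene called in hel-1 against wild type (log2 2.08 ± 0.26, edgeR adjusted p = 0.0280) and in the interaction (-2.65 ± 0.36, 0.0262), and both its hel-1 libraries stood above the 6 others, as for fbxa-192.

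The bath and math genes encode proteins with the MATH domain, and those with a BTB domain bind another cullin, CUL-3. Of 51 tested, 9 rose and 3 fell in daf-2 against wild type (median 0.03), among them bath-26, which rose (log2 4.05 ± 0.45, edgeR adjusted p = 0.00207), bath-24, which rose (1.38 ± 0.22, 0.00937), and math-14, which fell (-3.76 ± 0.40, 0.00181). In hel-1;daf-2 against hel-1, 2 rose and 4 fell, with bath-26 again higher (2.96 ± 0.42, 0.00844) and math-14 (-3.27 ± 0.38, 0.00415) and math-4 (-2.30 ± 0.23, 0.00198) lower. math-4 was also called in the interaction (-2.44 ± 0.31, 0.0224). Of 11 other F-box genes with assigned roles, fbxl-1 fell in daf-2 against wild type (-0.41 ± 0.08, 0.0205) and none rose.

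The list of the intracellular pathogen response is made up mostly of pals genes. Of 24 tested, 12 rose and none fell in daf-2 against wild type, with a median log2 fold change of 0.96, among them pals-26 (4.27 ± 0.29, edgeR adjusted p = 0.000379), pals-23 (1.22 ± 0.17, 0.00506) and pals-39 (3.60 ± 0.59, 0.0102). In hel-1;daf-2 against hel-1, 2 rose and 1 fell: pals-26 (3.64 ± 0.29, 0.000775) and pals-39 (2.47 ± 0.53, 0.0384) rose and rcs-1, whose RING protein belongs to the pathogen-response ligase, fell (-0.91 ± 0.19, 0.0330). Without daf-2 replicate 2, the daf-2 counts were 9 of 25 higher for this list, 4 of 30 for fbxc, 5 higher and 2 lower of 53 for bath and math, and 1 higher and 1 lower of 34 for the SCF list, where 6.34% of all tested genes were called higher and 3.67% lower. With all 8 libraries, edgeR called only fbxc-58 of these lists in hel-1 against wild type. It called no gene of the lists in hel-1;daf-2 relative to daf-2. Without daf-2 replicate 2, further genes of these lists were called in hel-1 against wild type.

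**Figure D5:**
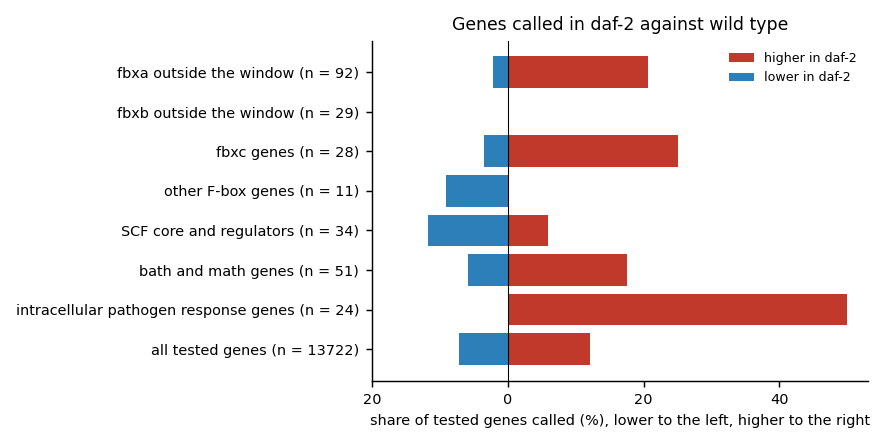
Share in percent of the tested genes of each list called higher (right of 0, red) or lower (left of 0, blue) in daf-2 against wild type by edgeR; n is the number of tested genes. fbxa members outside the window stand at 20.7% higher and 2.17% lower, fbxb members at 0, and all tested genes at 12.1% and 7.21%.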

How the data were processed

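Whole-worm RNA of 8 libraries, 2 for each of 4 genotypes, was analysed. The authors deposited RSEM expected counts per gene, 1 table a library, per the file headers. RSEM 1.3.1 is named in the submitters' processing notes beside Bowtie, TopHat2, cutadapt, HTSeq, FastQC and edgeR, with WBcel235 as a build; the aligner behind the counts and the use of strand are not given in the sources used here. Of 46904 gene identifiers 46817 are in the WBcel235 annotation (Ensembl), which gave symbols and positions, and 87 are not.

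Expected counts were rounded (2.03 to 2.79% per library were not whole within 0.005) and filtered with filterByExpr, which left 13722 genes. One model of 4 group means over all 8 libraries was fitted in edgeR 4.0.16 (R 4.3.3, TMM, quasi-likelihood test, 4 residual degrees of freedom, common biological coefficient of variation 0.168). P-values were adjusted by Benjamini-Hochberg over all tested genes, with a threshold of 0.05, and errors after ± are standard errors. CPM uses TMM-scaled library sizes; RPKM divides its mean by the merged exon length. The pipeline was tested on simulated counts. Counting intervals are exact at 95%, and intervals and the floor of 3 counts cover counting error only.

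Alternatives were DESeq2 1.42.0, its size factors, no filter, the replicate number as a block, fits of the compared groups only, and leaving out each library. Leaving out 1 library leaves a lone library of that genotype, which is assumed to vary like the other groups. Named were every member of the window, other called members (up to 8 per comparison and direction by adjusted p), the 6 tested members with the highest RPKM, up to 3 called genes per other list and the nearest tested neighbours of window members; fbxa-60, lsy-27, fbxa-134, fbxa-145, fbxa-74, fbxb-3 and the further called members were named after their values were seen. The interaction of window members, planned as a test, is given without one, because it is the difference of the 2 comparisons that set the window; genes of the window are left out of the other lists. fbxa-127 and fbxb-38 were also named after their values were seen. The members and lists were chosen with earlier results of these data known.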

Additional observations from a re-analysis of the deposited data

How the results depend on the processing

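Counts of called members outside the window moved with the test as follows. With DESeq2, 12 members rose in daf-2 against wild type, 1 in hel-1 against wild type, and 1 was lower in the interaction. With no filter on low counts, 1 rose in hel-1 against wild type, 1 fell in hel-1;daf-2 relative to daf-2, 5 fell in hel-1;daf-2 against hel-1, and 3 were lower in the interaction. Fits of the compared groups only gave 2 higher and 0 lower of 106 members fitted in daf-2 against wild type. In hel-1;daf-2 against hel-1 they gave 14 higher and 7 lower of 98 members fitted. Leaving out 1 library gave 2 to 34 higher and 0 to 3 lower in daf-2 against wild type, 0 to 7 lower in hel-1;daf-2 relative to daf-2, 1 to 9 higher and 0 to 5 lower in hel-1;daf-2 against hel-1, and 0 to 5 higher and 0 to 16 lower in the interaction. Several shares over all tested genes with 1 library left out are given above. No such share is given for DESeq2, no filter, the replicate block or the compared groups. The counts of those fits therefore stand without a background. The cause was not tested.

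With the replicate number as a block, 18 members rose and 2 fell in daf-2 against wild type, 4 rose and 2 fell in hel-1;daf-2 against hel-1, and none passed in the other comparisons. The calls of fbxa-181 and fbxa-42 against hel-1 were not made in that fit. Same-numbered libraries of different genotypes correlated in their deviations at -0.479 (daf-2 and wild type) to 0.226 (hel-1 and wild type), so the numbers were not taken as pairs. Another scaling, DESeq2's size factors, moved the median of all genes in daf-2 against wild type to 0.03 and that of the members to 0.45.

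The calls named by rank and the tested values of window members were followed under each alternative. Among these, signs turned only in 2 that were never called, with 1 library left out. In hel-1;daf-2 relative to daf-2 the log2 fold changes ran from -0.07 to 0.22 for fbxa-108 and from -0.02 to 0.41 for fbxb-7. Signs of other members were not followed singly and also turned. Of 24 members on chromosome III, all positive in daf-2 against wild type, 23 were positive without daf-2 replicate 2. A level of 0 at this depth allows up to 3 counts a library, and 24 members were too weak to test.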
